A study of Homo sapiens with 4 samples.

Results

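The ADAMTS, MMP and TIMP families are the secreted and membrane-bound metalloproteinases that cut the extracellular matrix, together with their tissue inhibitors. They were taken here by symbol alone, as the protein-coding genes named ADAMTS, ADAMTSL, MMP or TIMP with a number. This gave 51 genes out of 34080 genes with an identifier in the expression tables, namely 19 ADAMTS, 5 ADAMTSL, 23 MMP and 4 TIMP genes. A low-count filter left 30 of the 51 and 13569 genes in all for testing.

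To ask how these genes responded to a TFE3 fusion, RNA sequencing of HK-2 cells was analyzed, immortalised epithelial cells from a human proximal tubule. The cells carried a Tet-On 3G construct that makes HA-tagged PRCC-TFE3, the chimeric transcription factor of TFE3-rearranged renal cell carcinoma, when doxycycline is present. Doxy(+) cultures received 0.2 microg/ml doxycycline for 24 h and Doxy(-) cultures none, with 2 libraries of polyadenylated RNA per group. Both groups carried the construct, and no cells without it were analyzed here, so responses to doxycycline and to PRCC-TFE3 cannot be told apart. The labels do not say whether the 2 libraries of a group came from separate cultures, so all p-values below measure the spread between these libraries, which may be technical.

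ADAMTS proteins are secreted proteases with thrombospondin repeats, and subgroups of them mature procollagen, cut proteoglycans such as versican and aggrecan, or work on microfibrils. The ADAMTSL proteins share the repeats but lack the protease domain. MMPs are zinc proteases made as inactive precursors, which cut collagens and many other matrix and cell-surface proteins, and TIMPs bind and block the active enzymes. In the kidney these families take part in basement membrane turnover, fibrosis and tumor invasion.

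Library depth was even. The deposited estimated counts summed to between 14042545 and 16618401 reads per library, and the 51 genes received between 23113 and 27212 of these. The TFE3 count does not separate the native gene from the TFE3 part of the induced fusion. It was 66.9 and 69.0 CPM in the Doxy(-) libraries against 367 and 322 CPM in the Doxy(+) libraries. Here CPM is the read count scaled to a common library total. The TFE3 count was 5.07-fold higher by the group means (edgeR adjusted p = 4.8e-05), so the labels fit the induction of the construct. The tubule lineage factor PAX8 had between 7277 and 8426 estimated reads and the epithelial keratin KRT19 between 6376 and 9503. Of 11 proximal tubule markers, 6 had at most 3 reads in every library, among them LRP2, SLC22A6, AQP1 and HNF4A, while GGT1 had between 886 and 1155 and SLC5A2 between 39.3 and 53.9. Of the endothelial markers CDH5 and KDR were at 0, PECAM1 had at most 8.1 reads and VWF at most 8.0. Of the leukocyte markers PTPRC had at most 8.9 reads and CD14 at most 5.3, whereas the lysosomal protein gene CD68 had between 1852 and 2535. Of the fibroblast markers COL3A1 was at 0, PDGFRA had at most 4.0 reads, DCN between 19.1 and 42.4, COL1A1 between 209 and 297 and LUM between 2059 and 2562. Markers moved with the groups in both directions. CD68 and GGT1 rose by log2 fold changes of 0.37 and 0.25 (edgeR adjusted p = 0.00208 and 0.041), COL1A1 fell by 0.40 on the log2 scale (edgeR adjusted p = 0.0414), and the keratins KRT8, KRT18 and KRT19 fell by 0.24, 0.24 and 0.41 (edgeR adjusted p = 0.00376, 0.0142 and 0.000779), and their part in the results below was not tested.

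Of the 30 tested family members, 3 rose and 6 fell in Doxy(+) cells at an edgeR adjusted p under 0.05. The members that rose were the collagenase MMP13, the procollagen N-proteinase ADAMTS14 and the inhibitor TIMP2. Those that fell were ADAMTS1, ADAMTS3, ADAMTS5, ADAMTS6, ADAMTS9 and the membrane-bound MMP15. Thus 10% of the tested members rose against 9.76% of all tested genes, and 20.0% fell against 9.53%. The share that rose was near the share of all genes. With the further limit of a log2 fold change over 1 in size, MMP13 and ADAMTS14 passed upward, 6.67% of tested members against 1.50% of all genes, and ADAMTS5 passed downward, 3.33% against 0.479%. The median log2 fold change of the 30 members was -0.06, against 0.00 over all tested genes, with 17 members below 0 and 13 above. Of the 23 members tested in limma fits of TPM, the transcript abundance per length that the tables give, 2 rose and 2 fell. The share of all genes called in these fits is not given here. Classes and lists below were chosen with earlier results of these data known. Counts of calls within them are a description, to be read beside the 9.76% and 9.53% of all tested genes. Statements below that groups did not overlap describe the 2 libraries of each group and add no support to a call. In bulk RNA, a change in transcripts per cell and a change in the share of cells that make them cannot be told apart.

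**Figure D1:**
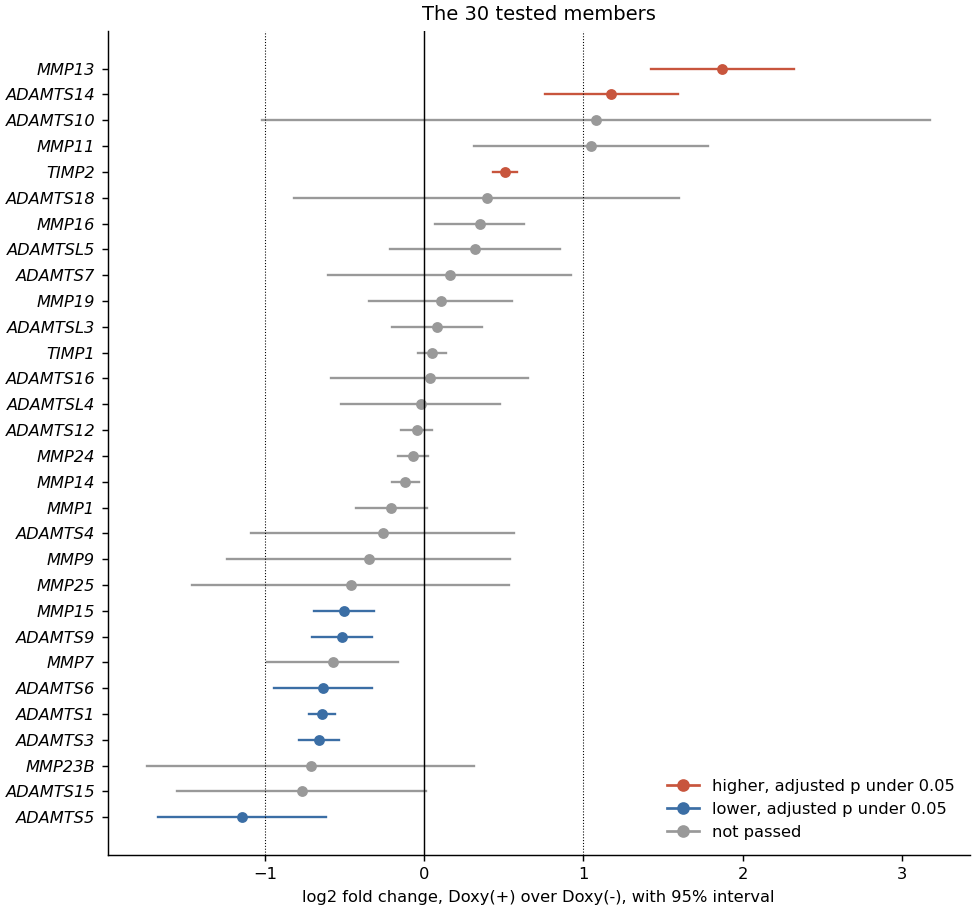
The log2 fold change of each of the 30 tested members, Doxy(+) over Doxy(-), is plotted as a point with its 95% interval from the edgeR fit, with dotted lines at -1 and 1. MMP13 at 1.87 and ADAMTS5 at -1.14 lie at the ends, and most gray points, which did not pass the test, have intervals across 0.

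The promoters of ADAMTS14 and ADAMTS6 are shown first. The ADAMTS14 gene lies on the plus strand of chromosome 10 at 70672506 to 70762441 in hg38. Its RefSeq promoter, from 250 bases before to 50 after the gene start at chr10:70672256-70672555 on the plus strand of GRCh38.p14, is printed because ADAMTS14 passed both limits. The window is set on the start of the transcript ADAMTS14-201, and the first exon of ADAMTS14-202, the other transcript described below, begins at 70672803, outside it. It is 79.7% G or C. It holds none of the searched motifs on either strand, which were CACGTG, the E-box bound by MiT/TFE factors, its variant TCATGTG, and TGANTCA, the AP-1 element. The promoter of ADAMTS6, which fell, is shown because it held a CACGTG, and lies at chr5:65481871-65482170 on the minus strand. Capitals mark the motif, which begins 63 bases before the start site.
ADAMTS14 promoter: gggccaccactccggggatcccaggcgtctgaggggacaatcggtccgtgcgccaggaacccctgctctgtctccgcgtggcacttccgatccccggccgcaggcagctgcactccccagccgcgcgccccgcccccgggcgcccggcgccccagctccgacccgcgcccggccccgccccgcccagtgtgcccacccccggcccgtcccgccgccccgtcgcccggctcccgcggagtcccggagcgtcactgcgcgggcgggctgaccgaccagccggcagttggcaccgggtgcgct
ADAMTS6 promoter: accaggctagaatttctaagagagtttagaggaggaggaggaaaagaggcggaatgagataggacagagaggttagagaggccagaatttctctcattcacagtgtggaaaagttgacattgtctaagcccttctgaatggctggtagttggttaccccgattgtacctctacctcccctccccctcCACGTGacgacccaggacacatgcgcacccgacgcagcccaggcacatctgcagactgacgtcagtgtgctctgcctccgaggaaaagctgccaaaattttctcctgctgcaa

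Among all 35116 promoters of the RefSeq table, 7.26% held CACGTG, 2.92% held TCATGTG and 7.71% held TGANTCA. Of the 32 members with an entry, 3 held CACGTG, namely ADAMTS6, ADAMTS17 and MMP21, 1 held TCATGTG, namely MMP8, and 4 held TGANTCA, namely ADAMTS12, MMP7, MMP10 and MMP20. ADAMTS6 is the one of these that passed the test. The promoters of ADAMTS3 and MMP15, which also fell, had none of the motifs in this window. The members with no entry in the table were ADAMTS1, ADAMTS4, ADAMTS5, ADAMTS8, ADAMTS9, ADAMTS15, ADAMTS16, MMP1, MMP2, MMP3, MMP9, MMP12, MMP13, MMP16, MMP17, MMP19, MMP25, MMP28 and TIMP2. A match describes the letters in the window and is not evidence of binding.

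The procollagen N-proteinases remove the amino-terminal propeptides of fibrillar procollagens. Of the 3 genes, ADAMTS14 rose, ADAMTS3 fell, and ADAMTS2 had at most 4.4 estimated reads in any library. ADAMTS14 was measured at 5.82 and 5.17 CPM in the Doxy(-) libraries against 11.0 and 13.9 CPM in the Doxy(+) libraries. Both induced libraries were higher than both controls, although the induced pair was further apart than the control pair. The group means were 5.49 ± 0.457 and 12.4 ± 2.05 CPM (SD, n = 2 each), a 2.26-fold difference, with a log2 fold change of 1.18 ± 0.17 (SE, with an adjusted p of 0.00652 by edgeR). Without the second Doxy(+) library the log2 fold change was 0.995, just under the limit of 1 (edgeR adjusted p = 0.0337). In a limma fit of log2(TPM + 1), ADAMTS14 did not pass (adjusted p = 0.0819).

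The reads of ADAMTS14 were placed on different transcripts in Doxy(-) and in Doxy(+). The tables list ADAMTS14-201, 5260 bases long, and ADAMTS14-202, 5269 bases long. In GENCODE the 22 exons of ADAMTS14-202 include an exon 6 that ends 9 bases later than in ADAMTS14-201, at 70730258 instead of 70730249 on chromosome 10, so the 9 extra bases are chr10:70730250-70730258. The first exons differ as well, since ADAMTS14-201 starts 297 bases earlier, at 70672506 against 70672803, and has 5557 bases in that release. Its length of 5260 in the tables is shorter by 297, and ADAMTS14-202 has the same 5269 bases in both. Below, the 12 last bases of exon 6 of ADAMTS14-201 and the 12 first of the next exon are given for each transcript, with the extra bases in capitals.
ADAMTS14-201 exon 6 junction: ttgggccctcagggtatgcacccg
ADAMTS14-202 exon 6 junction: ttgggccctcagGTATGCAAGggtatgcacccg

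ADAMTS14-201 received 75 and 69.2 reads in the Doxy(-) libraries against 0.06 and 0 in the Doxy(+) libraries. ADAMTS14-202 received 0 and 6.78 reads in Doxy(-) and 141 and 186 in Doxy(+). The share on ADAMTS14-202 was therefore 0% and 8.92% in Doxy(-) and 99.96% and 100.0% in Doxy(+), with no overlap between the groups. Their lengths in the tables differ by 9 bases, and which bases the authors' own annotation gave each transcript is not given in the sources used here. The sum per gene used for the test does not depend on the split. For some other members the split also moved between libraries of a single group, and for others it was even. ADAMTSL4-202 took 52.8% of the ADAMTSL4 count in the first Doxy(+) library and 1.9% in the second, and MMP11-201 took 39.3% and 92.1% of the MMP11 count in Doxy(-). In contrast, ADAMTS3-201 held between 98.5% and 99.5% of the ADAMTS3 count in every library. Whether the ADAMTS14 difference arose in splicing or in the assignment of reads was not tested.

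**Figure D2:**
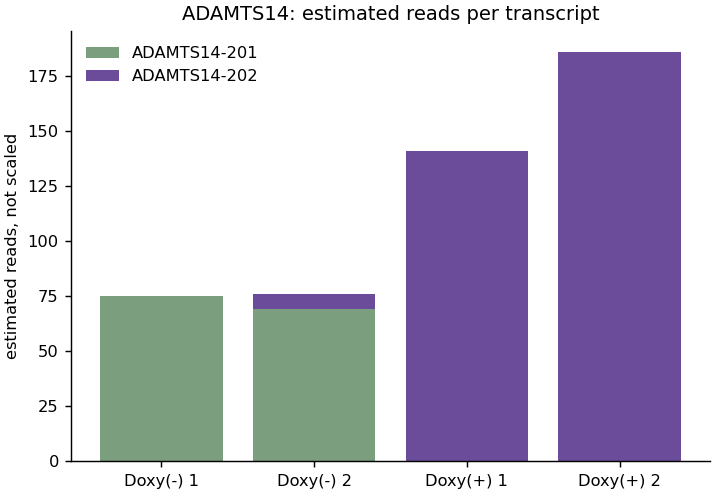
Stacked bars give the estimated reads, not scaled for depth, placed on ADAMTS14-201 and ADAMTS14-202 in each of the 4 libraries. The Doxy(-) bars, 75 and 76 reads in total, are mostly ADAMTS14-201, and the Doxy(+) bars, 141 and 186 reads, are ADAMTS14-202.

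ADAMTS3, which also cuts the precursor of the lymphangiogenic factor VEGF-C, was the most abundant of the procollagen N-proteinases per length, with a mean of 29.8 TPM against 2.53 TPM for ADAMTS14. Its values were 133 and 141 CPM in Doxy(-) and 88.5 and 84.6 CPM in Doxy(+). Every induced library lay below every control library. The group mean was 36.7% lower, at 86.5 ± 2.73 against 137 ± 5.75 CPM (SD, n = 2 each), with a log2 fold change of -0.66 ± 0.05 (SE, with an adjusted p of 0.000741 by edgeR). The summed TPM of these proteases reached 37.9 and 38.0 in the Doxy(-) libraries against 26.6 and 27.2 in the Doxy(+) libraries, since the rise of ADAMTS14 was smaller in TPM than the fall of ADAMTS3.

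The proteoglycanases, which cleave versican, aggrecan and related core proteins, include ADAMTS1, ADAMTS4, ADAMTS5, ADAMTS8, ADAMTS9, ADAMTS15 and ADAMTS20. Of these 7 genes 5 were tested, 3 fell and 0 rose, where 9.53% of all tested genes fell and 9.76% rose. The summed level of the proteoglycanases was 125.6 and 106.3 TPM in Doxy(-) and 75.2 and 72.8 TPM in Doxy(+), most of it from ADAMTS1. ADAMTS1 was measured at 332 and 322 CPM in the Doxy(-) libraries against 209 and 210.1 CPM in the Doxy(+) libraries. The libraries of each group were close and the groups far apart. The mean was 35.9% lower, at 209.6 ± 0.775 against 327 ± 7.44 CPM (SD, n = 2 each), with a log2 fold change of -0.64 ± 0.03 (SE, with an adjusted p of 0.000237 by edgeR).

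ADAMTS5, an aggrecanase, was the least abundant of the changed members per length, with a mean of 0.670 TPM over the 4 libraries. It had 5.74 and 5.72 CPM in Doxy(-) and 2.87 and 2.31 CPM in Doxy(+), from 74 and 84 estimated reads against 37 and 31. The groups did not overlap, and the mean was 54.8% lower (2.59 ± 0.399 against 5.73 ± 0.0174 CPM, SD, n = 2 each). The log2 fold change was -1.14 ± 0.22 (SE, with an adjusted p of 0.0164 by edgeR). With so few reads the call rested on both Doxy(+) libraries, since the edgeR adjusted p was 0.0505 without the first, at a log2 fold change of -1.31, and 0.0819 without the second, at -0.99. ADAMTS9, which cleaves versican and aggrecan, was measured at 27.8 and 28.6 CPM in Doxy(-) and at 19.7 in each Doxy(+) library. Its mean was 29.97% lower, with a log2 fold change of -0.51 ± 0.08 (SE, with an adjusted p of 0.00707 by edgeR), and the groups stood well apart. It missed the limit in limma fits of TPM (adjusted p = 0.164 with a pseudocount of 1) and with length-scaled counts. Its canonical transcript ADAMTS9-210 held 68.8% and 46.9% of its count in Doxy(-) and 23.6% and 24.7% in Doxy(+), given as a description.

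ADAMTS15 and ADAMTS4 did not pass. ADAMTS15 was at 1.78 and 2.11 CPM in the Doxy(-) libraries against 1.17 and 1.12 CPM in the Doxy(+) libraries, with a log2 fold change of -0.77, a 95% interval from -1.55 to 0.01 and an edgeR adjusted p of 0.154. ADAMTS4 had a log2 fold change of -0.26 with an interval from -1.09 to 0.57, and its groups overlapped. ADAMTS8 and ADAMTS20 had no reads in any library. The genes ADAMTS1 and ADAMTS5, both of which fell, are neighbors on the minus strand of chromosome 21, at 26835755 to 26845409 and 26917922 to 26967088 in hg38, with 72.51 kb and 0 protein-coding genes between them.

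**Figure D3:**
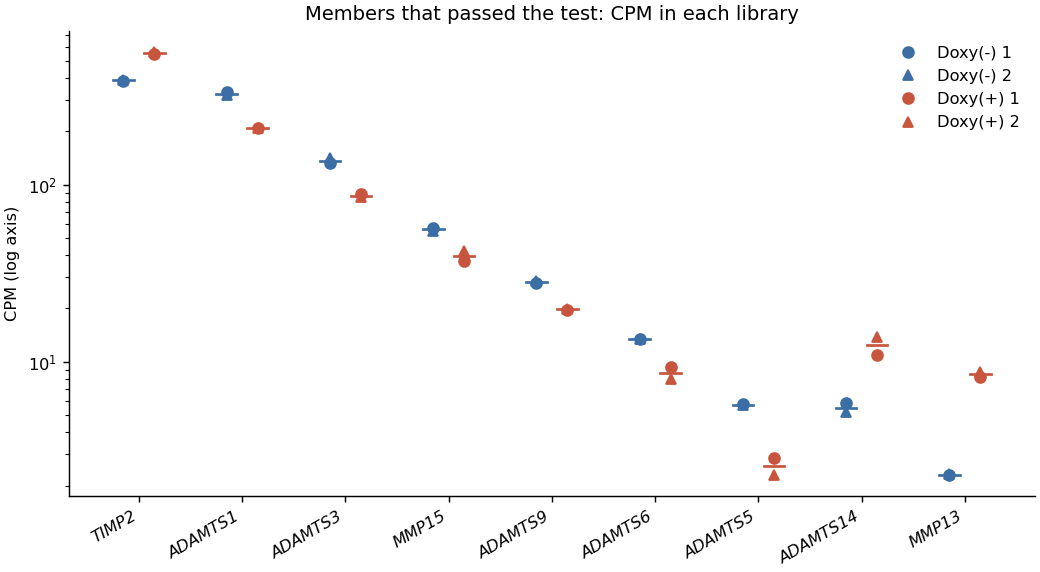
CPM on a log axis is shown for the 9 members that passed the test, in order of level, with each library as a symbol and the group mean as a bar. In every gene the 2 Doxy(+) libraries lie on one side of the 2 Doxy(-) libraries, above for TIMP2, ADAMTS14 and MMP13 and below for the other 6. Because these genes were called from the same libraries, the separation adds no support to the calls.

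ADAMTS6 and ADAMTS10 are known for their association with fibrillin microfibrils. ADAMTS6 was measured at 13.5 CPM in each Doxy(-) library and at 9.32 and 8.04 CPM in Doxy(+). Its mean was 35.6% lower, with a log2 fold change of -0.64 ± 0.13 (SE, with an adjusted p of 0.0192 by edgeR), and both induced libraries lay below the controls. This was the least secure of the 9 calls. It was lost without the second Doxy(+) library (log2 fold change -0.53, edgeR adjusted p = 0.0897) and when transcripts typed as protein coding alone were summed (edgeR adjusted p = 0.0914), with length-scaled counts (edgeR adjusted p = 0.116), and in the limma fits of TPM (adjusted p = 0.302 and 0.308 with pseudocounts of 1 and 0.1). ADAMTS10 was at 0.784 and 0.211 CPM in the Doxy(-) libraries against 0.353 and 1.63 CPM in the Doxy(+) libraries, with an interval from -1.01 to 3.18 on the log2 scale, which covers a large change in either direction.

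The proteases that cleave cartilage oligomeric matrix protein, ADAMTS7 and ADAMTS12, did not pass. ADAMTS12 was abundant, at 145 and 143 CPM in the Doxy(-) libraries against 141 and 137 CPM in the Doxy(+) libraries. Its log2 fold change was -0.05 with a 95% interval from -0.14 to 0.05, which leaves room for a small difference alone, although per length it was 46.0 and 37.2 TPM in Doxy(-) and 49.7 and 43.8 TPM in Doxy(+), in the other direction. ADAMTS7, which has known pseudogene copies and is uncertain for that reason, had a log2 fold change of 0.16 (interval -0.60 to 0.92). Of the remaining ADAMTS genes, ADAMTS16 and ADAMTS18 were tested at log2 fold changes of 0.04 and 0.39 without passing, ADAMTS13, the von Willebrand factor protease, had at most 10.9 reads, ADAMTS17 at most 8.0 reads, and ADAMTS19 none.

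Of the 5 ADAMTSL genes 3 were tested, and 0 passed. ADAMTSL3, ADAMTSL4 and ADAMTSL5 had log2 fold changes of 0.08, -0.02 and 0.32, and the CPM of the groups overlapped in each. At least 99.0% of the ADAMTSL3 count in each library lay on ADAMTSL3-208, annotated as a retained intron, so its level is not that of a coding transcript. Exons of ADAMTSL4 overlap those of MCL1 on the opposite strand, and exons of ADAMTSL5 overlap those of PLK5. ADAMTSL1 and ADAMTSL2 had at most 1.0 and 6.0 reads in any library.

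Collagenases open the triple helix of fibrillar collagens. Of the 3 genes, MMP13 rose, MMP1 did not pass and MMP8 had no reads. MMP13, on the minus strand of chromosome 11 at 102942995 to 102955732 in hg38, was measured at 2.30 and 2.31 CPM in the Doxy(-) libraries against 8.23 and 8.80 CPM in the Doxy(+) libraries. These were 29.6 and 34.0 estimated reads against 106.0 and 118.2. Both induced libraries were above both controls by far more than replicates differed. The mean was 3.70-fold higher, at 8.52 ± 0.403 against 2.30 ± 0.0125 CPM (SD, n = 2 each), with a log2 fold change of 1.87 ± 0.18 (SE, with an adjusted p of 0.00164 by edgeR), the most positive of the 30 members. On the matched identifiers its level was 6.02 and 6.19 TPM in Doxy(+), against 12 and 11.9 TPM for MMP1 in the same libraries. A pair of unmatched identifiers carried the same lengths and counts as the MMP13 transcripts, with 71.4 and 34.6 reads in the first Doxy(+) library. The reads, CPM and TPM of MMP13 given here leave these copies out, so its level relative to MMP1 is not settled. With the copies added the log2 fold change was 1.89 (edgeR adjusted p = 0.000386).

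MMP1 was at 17.8 and 17.4 CPM in Doxy(-) and at 15.2 in each Doxy(+) library. Its log2 fold change of -0.21 had a 95% interval from -0.43 to 0.02 (edgeR adjusted p = 0.179). MMP1 and MMP13 belong to a run of 9 MMP genes on chromosome 11 with 0 other protein-coding genes between neighbors, in the order MMP7, MMP20, MMP27, MMP8, MMP10, MMP1, MMP3, MMP12 and MMP13. Within this run MMP13 rose, MMP1 and MMP7 were tested without passing, MMP20 and MMP10 had at most 7.0 and 1.0 reads, and MMP27, MMP8, MMP3 and MMP12 had none. MMP7, the matrilysin of injured tubule epithelium, was at 6.59 and 6.87 CPM in the Doxy(-) libraries against 4.5 and 4.54 CPM in the Doxy(+) libraries. Its groups did not overlap, and its log2 fold change was -0.57 with an interval from -0.98 to -0.16, but its edgeR adjusted p of 0.0652 missed the threshold.

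Membrane-type MMPs act at the cell surface, and MMP14 is the main activator of the gelatinase MMP2. Of the 6 genes 5 were tested and 1 passed, MMP15, which fell. MMP15 was at 57.2 and 54.6 CPM in the Doxy(-) libraries against 36.9 and 41.9 CPM in the Doxy(+) libraries. The induced libraries both lay below the controls, and the mean was 29.5% lower, with a log2 fold change of -0.50 ± 0.08 (SE, with an adjusted p of 0.00742 by edgeR). In limma fits of TPM it missed the limit (adjusted p = 0.0819 with a pseudocount of 1).

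MMP14 was the most abundant MMP per length, with 122 and 120.4 TPM in Doxy(-) and 112 and 109 TPM in Doxy(+). On the CPM scale it was at 272 and 282 in Doxy(-) and at 255 and 256 in Doxy(+), and the log2 fold change of -0.12 had an interval from -0.20 to -0.03 and an edgeR adjusted p of 0.0671. The groups did not overlap, and without the first Doxy(-) library MMP14 passed the threshold (edgeR adjusted p = 0.0307, log2 fold change -0.15). MMP24 was at 216 and 209.7 CPM in the Doxy(-) libraries against 199 and 206 CPM in the Doxy(+) libraries, with a log2 fold change of -0.07 and an interval from -0.16 to 0.02. MMP16 had a log2 fold change of 0.35 (interval 0.07 to 0.63, edgeR adjusted p = 0.0869) and MMP25 one of -0.46, with overlapping groups. MMP17 had at most 4.0 reads.

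Gelatinases were scarce. MMP2 had at most 6.0 reads, and MMP9 was at 1.16 and 1.63 CPM in the Doxy(-) libraries against 1.09 and 1.12 CPM in the Doxy(+) libraries, with an interval of its log2 fold change from -1.24 to 0.54. The stromelysin-related MMP11 was at 1.22 and 1.50 CPM in the Doxy(-) libraries against 2.54 and 3.17 CPM in the Doxy(+) libraries. Its log2 fold change was 1.05 with an interval from 0.31 to 1.78, and the groups did not overlap, but the edgeR adjusted p of 0.0611 missed the threshold at this depth. MMP19 had a log2 fold change of 0.10 and MMP23B one of -0.71 with an interval from -1.74 to 0.32. MMP23B has a near-identical copy, MMP23A, and exons that overlap CDK11B, so its reads are uncertain. MMP21, MMP26 and MMP28 had none.

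Among the TIMPs, TIMP2 rose, TIMP1 did not pass, and TIMP3 and TIMP4 had at most 1.0 read in any library. TIMP2, which blocks MMPs and also takes part in MMP2 activation together with MMP14, was measured at 386 and 388 CPM in the Doxy(-) libraries against 544 and 558 CPM in the Doxy(+) libraries. The libraries of a group nearly coincided, and the groups were clearly separate. The mean was 1.42-fold higher, at 551 ± 10.1 against 387 ± 1.54 CPM (SD, n = 2 each), with a log2 fold change of 0.51 ± 0.03 (SE, with an adjusted p of 0.000316 by edgeR). TIMP1, the most abundant of all members per length, was at 638 and 621 TPM in the Doxy(-) libraries against 649 and 648 TPM in the Doxy(+) libraries. On the CPM scale it was at 175 and 172 in Doxy(-) and at 181 and 178 in Doxy(+), with a log2 fold change of 0.05, an interval from -0.04 to 0.13 and an edgeR adjusted p of 0.413.

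Per length, the order of levels over all 4 libraries was TIMP1 with a mean of 639 TPM, TIMP2 with 208 TPM, MMP14 with 116 TPM, ADAMTS1 with 86.7 TPM, MMP24 with 69.9 TPM, ADAMTS12 with 44.2 TPM, ADAMTS3 with 29.8 TPM and MMP15 with 16.6 TPM. The ranges of MMP14 and ADAMTS1, of ADAMTS1 and MMP24, and of MMP15 and MMP1 overlapped over the 4 libraries, while the other neighbors down to MMP1 stood apart. The order of ADAMTS1 and MMP24 differed between the groups, with means of 106 and 70.5 TPM in Doxy(-) but 67.2 and 69.2 TPM in Doxy(+). Below MMP1 and ADAMTSL3, neighbors overlapped, except ADAMTS15 and ADAMTS4. In this order MMP13 was placed without the unmatched copies described above. By family, TIMP transcripts made up 62.2% and 63.5% of the summed member TPM in Doxy(-) and 68.2% and 68.7% in Doxy(+). ADAMTS transcripts made up 16.7% and 15.2% in Doxy(-) and 12% and 11.6% in Doxy(+), and MMP transcripts 19.6% and 20.0% against 17.8% and 18.2%. These shares follow TIMP1, TIMP2, MMP14 and ADAMTS1 more than the other genes, and much of the TIMP1 level lay on the short transcript TIMP1-203.

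**Figure D4:**
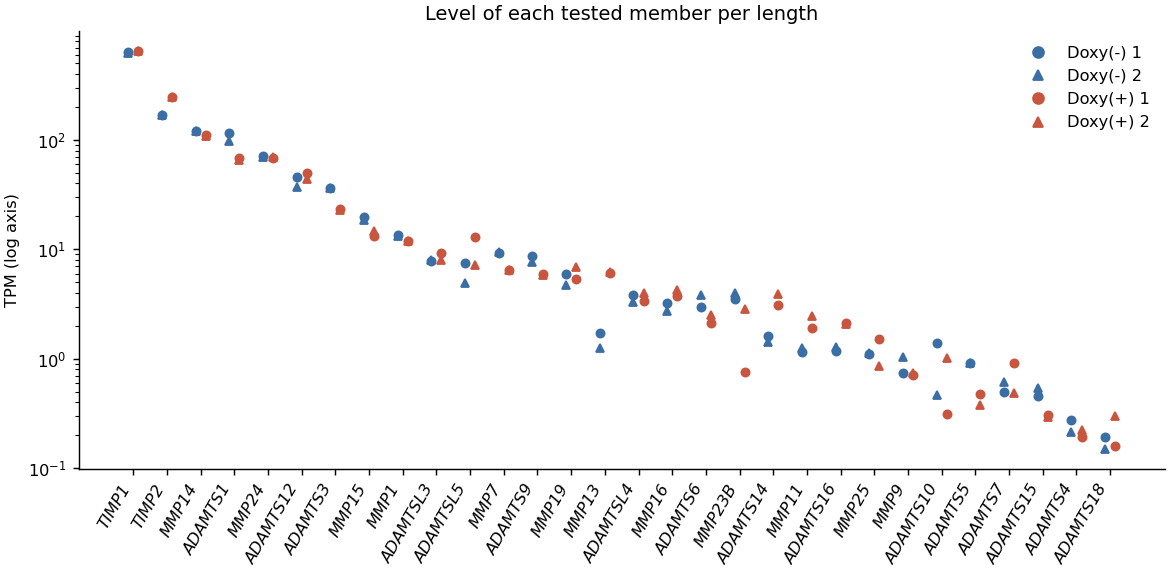
TPM on a log axis is shown for each of the 30 tested members in each library, ordered by the mean of all 4. TIMP1, at 639 TPM on average, stands above TIMP2 at 208 TPM, and the induced libraries stand apart from the controls for genes such as TIMP2, ADAMTS1, ADAMTS3 and MMP13.

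For the 10 members with no reads in any library, a count of 0 allows up to 3 reads, which is between 0.204 and 0.233 CPM per library and covers counting error only. The other 11 members below the filter had at most 10.9 reads in a library. An edgeR fit without the filter and DESeq2 each tested 41 members and called the same 9. The 21 tested members that did not pass had log2 fold changes between -0.77 and 1.08. Among them 4, namely MMP7, MMP11, MMP14 and MMP16, had an unadjusted edgeR p under 0.05, and 1.08 belonged to ADAMTS10.

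The surrounding system was described with 89 genes that activate or control these proteases or serve as their substrates. Of the 67 tested, 5 rose (7.46%) and 22 fell (32.8%), against 9.76% and 9.53% of all genes, and the median log2 fold change was -0.19. Genes were listed with earlier results of these libraries known, so the counts are a description. In limma fits of TPM, which tested 60 of these genes, 2 rose and 9 fell. Without the first Doxy(+) library 2 rose, and 0 of these were among the 5. In the group of protease activation and cell-surface control, 8 of 18 tested genes fell and 2 rose. THBS1, a matricellular glycoprotein, was at 139.5 and 136 CPM in the Doxy(-) libraries against 35.4 and 34.7 CPM in the Doxy(+) libraries, 74.6% lower (edgeR adjusted p = 3.4e-05). The control libraries lay far above the induced ones.

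CCBE1, the cofactor with which ADAMTS3 processes VEGF-C, fell together with that protease, from 74.6 and 73.4 CPM to 42.4 and 43.7 CPM (log2 fold change -0.78, edgeR adjusted p = 0.000516). VEGFC, the gene of the factor they process, had 0 reads in every library. CD44, a hyaluronan receptor that can hold MMP9 at the cell surface, fell by 0.55 on the log2 scale (edgeR adjusted p = 0.000726). CCBE1 and CD44 both missed the limit in limma fits of TPM, at adjusted p = 0.126 and 0.0529 with a pseudocount of 1. CCBE1 also missed it with length-scaled counts. SPOCK2, a testican proteoglycan, rose by a log2 fold change of 2.17 ± 0.50 (SE, with an adjusted p of 0.031 by edgeR), but from 0.195 and 0.635 CPM to 1.70 and 2.21 CPM. It was lost in 6 of the alternative fits, namely without the first Doxy(-) library, without either Doxy(+) library, with length-scaled counts and in both limma fits of TPM, with adjusted p-values between 0.0874 and 0.231.

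Of 17 tested genes for procollagens and their maturation, 4 fell and 1 rose, all by less than 0.5 on the log2 scale. Of 12 proteoglycan and glycoprotein substrates 4 fell and 0 rose. Versican, VCAN, the shared substrate of ADAMTS1, ADAMTS5 and ADAMTS9, was at 1344 and 1364 CPM in the Doxy(-) libraries against 965 and 949 CPM in the Doxy(+) libraries, with a log2 fold change of -0.50 (edgeR adjusted p = 0.000237). Of 12 microfibril genes 3 fell, among them LTBP2, with 133 and 134 CPM against 68.9 and 74.1 CPM (edgeR adjusted p = 0.000307), and EFEMP1, with 22.7 and 20.3 CPM against 11.6 and 10.7 CPM (edgeR adjusted p = 0.003). The groups did not overlap for VCAN, LTBP2 or EFEMP1.

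The ADAM sheddases, membrane-anchored relatives of the ADAMTS proteases that release growth factors and receptors, were divided. Of 8 tested genes 2 rose and 3 fell. The largest called change was in ADAM12, at 42.7 and 42.8 CPM in the Doxy(-) libraries against 18.9 and 22.9 CPM in the Doxy(+) libraries, with a log2 fold change of -1.03 ± 0.10 (SE, with an adjusted p of 0.00148 by edgeR). Both induced libraries were lower by far more than they differed from each other, but ADAM12 missed the limit in the limma fits of TPM (adjusted p = 0.0781 with a pseudocount of 1).

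**Figure D5:**
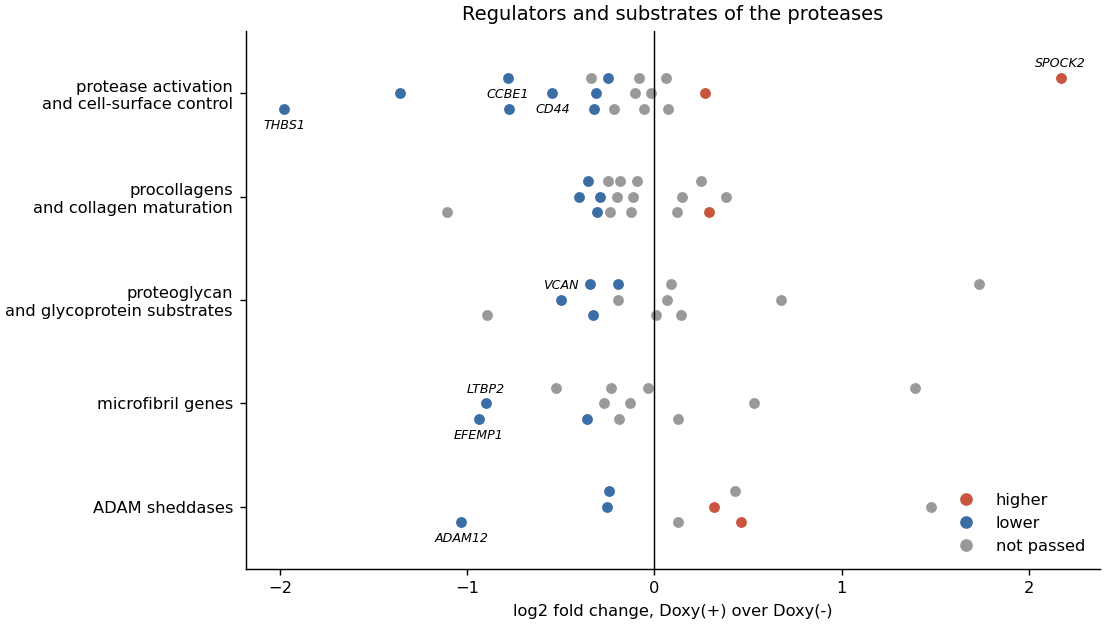
Each point is the log2 fold change, Doxy(+) over Doxy(-), of 1 of the 67 tested regulator and substrate genes, set out by list and colored by the edgeR call. The 22 genes that fell lie left of 0, with THBS1 at -1.98 furthest out, and 5 genes that rose lie right of 0, with SPOCK2 at 2.17.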

How the data were processed

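RNA of 2 Doxy(-) and 2 Doxy(+) libraries was measured with a stranded TruSeq mRNA kit. The study's methods name Trim Galore!, STAR, RSEM and DESeq2 on hg38, but the tables have the columns of kallisto over 180253 Ensembl transcripts. The quantifier's version, the annotation release and the use of strand are not given in the sources used here. The deposited values are estimated counts per transcript, not normalized, and TPM values that the authors' quantifier scaled to the same total in each library. Estimated counts were summed per gene through GENCODE release 44 on hg38 and rounded to whole numbers. The 29562 identifiers without a match, with 9.66% to 9.89% of the counts, were left out.

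Gene counts were tested with the edgeR 4.0.16 quasi-likelihood functions in R 4.3.3, with TMM scaling, the filterByExpr filter, the group as sole term and Benjamini-Hochberg adjustment over 13569 genes. Calls used an adjusted p under 0.05, and the second limit was a log2 fold change above 1 or below -1. CPM uses the TMM-scaled totals. The common biological coefficient of variation was 6.53%. Every member is accounted for. Library values are given for called members and for the 8 highest in TPM, and regulators and substrates are named at an adjusted p under 0.05 and an absolute log2 fold change over 0.5, at most 4 per direction and list. Values of 1 such gene are not reported here. Members, classes and lists were chosen with earlier results of these data known, and the study lists qPCR primers for ADAMTS14. Alternatives were RLE factors, no filter, a mean CPM of at least 1, DESeq2 1.42.0, a replicate block, leaving out each library, limma 3.58.1 on log2(TPM + 1) and log2(TPM + 0.1) at a mean TPM of at least 1, length-scaled counts, protein-coding transcripts only, added copies, and an adjusted p under 0.01. The fit was tested on simulated counts. Opposite-strand exon overlaps could mix reads if the counting ignored strand. The deviations of libraries with the same number had a correlation of -0.01, so the numbers were not taken to pair them.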

Additional observations from a re-analysis of the deposited data

How the results depend on the processing

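The 3 members that rose and the 6 that fell stayed within 1.5 times these counts under most alternatives. Both limma fits of TPM tested 23 members, of which 2 rose and 2 fell, with 1 rising and 0 falling past both limits. They tested 60 regulators and substrates, of which 2 rose and 9 fell in place of 5 and 22. Length-scaled counts gave 2 and 13 regulators and substrates. An adjusted p under 0.01 left 0 falling members past both limits. Leaving out 1 library gave 3 rising and between 4 and 7 falling members, between 1 and 2 rising and between 0 and 1 falling past both limits, and between 2 and 8 rising and between 15 and 21 falling regulators and substrates. ADAMTS14 left the set past both limits without the second Doxy(+) library and ADAMTS5 without either Doxy(+) library. Rising regulators and substrates numbered 2 without the first Doxy(+) library, 0 of them among the 5, and 3 without the second Doxy(+) library, and 8 without the second Doxy(-) library. The replicate block gave 3 and 6 members and 5 and 23 regulators and substrates, and it changed no call of a member. MMP13, TIMP2, ADAMTS1 and ADAMTS3 kept their call in all 14 alternative fits. Of 124 alternative values of the called members 14 lost the call and 0 changed sign. Of 276 values of members that did not pass, 17 changed sign. With length-scaled counts, ADAMTS10 was at -0.541, ADAMTS12 at 0.133, MMP25 at 0.024 and ADAMTSL4 at 0.000. In the limma fits with pseudocounts of 1 and 0.1, ADAMTS12 was at 0.169 and 0.173, MMP25 at 0.028 and 0.029, and ADAMTSL4 at 0.029 and 0.036. Leaving out 1 library gave values from -0.296 to 2.265 for ADAMTS10, from -0.152 to 0.777 for ADAMTS18, from -0.021 to 0.173 for ADAMTSL3, from -0.074 to 0.294 for MMP19, from -0.057 to 0.350 for ADAMTS7, from -0.099 to 0.186 for ADAMTS16 and from -0.273 to 0.266 for ADAMTSL4. The cause was not tested. ADAMTS5 was below the TPM minimum of the limma fits. Groups of 2 were too small for a test of outlying libraries, and depth limits the 21 members with at most 10.9 reads in a library.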
